A study of Mus musculus with 2 samples.

Results

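The Smad4 peaks described here lie at the loci of Runx1, Runx2 and Runx3, the 3 mouse genes of the Runx family. Peaks were taken by position alone: a peak belonged to a locus when its midpoint fell in a window fixed around the gene on build mm9, at 92100001 to 93300000 on chromosome 16 for Runx1, 44300001 to 45300000 on chromosome 17 for Runx2 and 134400001 to 135000000 on chromosome 4 for Runx3. This gave 34, 28 and 9 peaks, 71 of the 90984 in the deposited list, and none of the 71 reached 3-fold, which 0.836% of the peaks outside the 3 loci did. They came from forelimbs of C57BL/6 mouse embryos, collected at embryonic days 12.5 and 13.5, from which Smad4-bound chromatin was precipitated with an antibody and sequenced as 1 library beside 1 library of input DNA. The labels give both ages for each library and name no mutant allele, transgene or treatment, and whole forelimb holds muscle, skin and vessel cells as well as cartilage. With 1 library a group there is no replicate check and no test between conditions. The intervals given are 95% intervals of counting error only (exact Poisson for numbers, exact binomial for shares), peaks of 1 library are not replicates, and the depth of both libraries is unknown.

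Runx proteins are transcription factors that bind DNA through the Runt domain, together with the partner CBFβ, and each gene has a distal and a proximal promoter. Runx2 is required for bone formation and drives cartilage cells into hypertrophy, the last stage before cartilage is replaced by bone. Runx3 acts beside it in cartilage, and Runx1, best known from blood formation, is also expressed in early skeletal progenitors. Smad4 is the partner that BMP- and TGF-β-activated Smads share on chromatin, and those Smads can bind Runx proteins. The series title places Smad4 upstream of Runx2 in hypertrophy, and the submitters looked for direct targets.

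The promoters of the family are shown first, because at least 1 promoter of each gene holds the same long run of letters. RefSeq start sites on GRCm38.p6 gave 2 promoter sequences for Runx1, 1 for Runx2 and 2 for Runx3, each from 250 bases before to 50 bases after the start. The longest run of letters present in at least 1 promoter of every gene had 18 bases, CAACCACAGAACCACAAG, and holds the Runx site ACCACA in 2 copies. It is in capitals below in a run of 30 bases read 5′ to 3′ on the gene's strand, for Runx1 at chr16:92826025-92826054 on the minus strand, for Runx2 at chr17:44814583-44814612 on the minus strand and for Runx3 at chr4:135120503-135120532 on the plus strand, all GRCm38.p6 positions that cannot be set beside the mm9 peaks.
Runx1: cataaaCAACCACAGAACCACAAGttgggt
Runx2: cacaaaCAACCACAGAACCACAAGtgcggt
Runx3: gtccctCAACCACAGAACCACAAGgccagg
Counted from the start as base 1, the run begins at base 27 in Runx1 and base 22 in Runx2, and at base -136, before the start, in Runx3. On either strand, 4 of 32851 promoter sequences in the table hold it (0.0122%): these 3 and that of Gm16225, which overlaps the Runx3 promoter on the other strand. A single Runx site, searched for on both strands, is in 16.8% of promoter sequences.

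The 250 bases before the Runx2 start (chr17:44814628-44814877, minus strand, GRCm38.p6) are shown because Runx2 is the gene in the series title, with the Runx site in capitals.
Runx2 upstream: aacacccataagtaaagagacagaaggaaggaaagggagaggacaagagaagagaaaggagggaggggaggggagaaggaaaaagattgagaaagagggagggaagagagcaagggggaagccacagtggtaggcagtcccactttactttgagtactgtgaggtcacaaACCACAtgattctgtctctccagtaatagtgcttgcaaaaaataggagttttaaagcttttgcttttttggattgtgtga
The Smad box, with the letters CAGAC, was searched for on both strands of the same 300-base promoter sequences and is in 49.6% of all entries. A GC-rich Smad box, with the letters GGCGC, is in 36.9% of them. Neither was in the Runx2 sequence or in the Runx1 sequence that holds the shared run. Shorter or other forms of these boxes were not searched for. The letters AGAC, a part of the Smad box, and their reverse complement GTCT do occur in the Runx2 sequence above. How many promoters hold these shorter letters was not counted. Only 1 sequence was given for Runx2, so its other promoter was not searched. The Runx3 sequence with the shared run held the Smad box 2 times. The other Runx1 promoter held the GC-rich box 5 times, and the other Runx3 promoter held each box 1 time. These are matches of letters and not sites of binding.

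Runx2, the master regulator of bone and of cartilage hypertrophy, had Smad4 peaks of 2-fold in its window at a share near that of its chromosome. The 28 peaks ranged from 1.12 to 2.88 in the deposited fold enrichment, which is the caller's ratio over a background that is not stated, and from 15 to 27 tags. The lowest number of tags in the whole list is also 15. Peaks of at least 2-fold numbered 4 of 28 (14.3%, interval 4.03 to 32.7%), beside 15.7% of the 3169 peaks in the rest of chromosome 17. None reached 3-fold, which allows a share of up to 10.7%, beside 1.36% in the rest, so 28 peaks were too few to show a difference. The share at 2-fold was thus near that of the rest of the chromosome. It was lower than the median of the 10 nearest windows, 24.4%, a value inside the interval of this window. Of those 10 windows, 7 had as high a share or higher, and the 2 adjoining ones had 25% and 48.6%. In a window widened by 500 kb on each side the share was 26.7% (16 of 60 peaks, 16.1 to 39.7%).

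The leading peak of the Runx2 window lay below the gene, at 44564241 to 44565163. It held 27 tags (interval 17.8 to 39.3 tags) and was 2.88-fold, with an FDR of 0.09% and a p score of 251.45. The p score is the caller's p-value as -log10, multiplied by 10. It ranked 1032 in fold and 3252 in p score among all 90984 peaks. The next folds were 2.65 for 16 tags (9.15 to 26.0), at 44377095 to 44377625, and 2.61 for 20 tags (12.2 to 30.9), at 44672002 to 44672648. By p score the peak at 45115018 to 45115594 came second, at 185.24, with 21 tags and a fold of 2.19. As many tags as the leading peak were held by that at 45052601 to 45053457, but at a fold of 1.88. The tag intervals of these peaks overlap, so their order by tags is within counting error.

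Inside the approximate mm9 span of Runx2, 44.63 to 44.95 Mb, there were 6 peaks in 320 kb, or 18.8 per Mb (6.88 to 40.8). Outside it the window held 22 peaks in 680 kb, or 32.4 per Mb (20.3 to 49.0), and the intervals overlap. The 6 peaks had folds of 1.30 to 2.61 and 15 to 20 tags. Of the 6, 1 reached 2-fold, the peak at 44672002, which lay 42.0 kb inside the lower end. In the rest of chromosome 17 the share at 2-fold was 15.7%, and 6 peaks are too few to show a difference from it. The others began at 44758104 (1.30-fold), 44780794 (1.76-fold), 44788937 (1.69-fold), 44877496 (1.75-fold) and 44904032 (1.98-fold). In the stretch below the span, 14 peaks gave 42.4 per Mb (23.2 to 71.2), and above it 8 peaks gave 22.9 per Mb (9.87 to 45.0).

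Runx2 is on the minus strand, so the upper end of the span is its start side. No peak midpoint lay within 10 kb of that end, to which the span is rounded. The median interval between neighbouring peaks on chromosome 17 was 17.1 kb, so a short stretch without a peak is common there. Neither promoter of Runx2 was placed on mm9, so no peak was set beside a start site. The peak nearest to the upper end was 12.4 kb above it, at 44962413 to 44962714, with 15 tags (8.40 to 24.7) and a fold of 1.44. Beside it, 14.7 kb above the end, lay another of 15 tags and 1.97-fold (44964729 to 44965285). Both had the lowest number of tags that the list holds. Supt3, which encodes a subunit of transcriptional coactivator complexes, overlaps Runx2 in the GRCm38.p6 gene table, so peaks near this end are not tied to Runx2 by position alone. The other nearest protein-coding genes in that table are Clic5, Enpp4 and Enpp5 on the lower side and 4930564C03Rik and Cdc5l on the upper side.

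**Figure D1:**
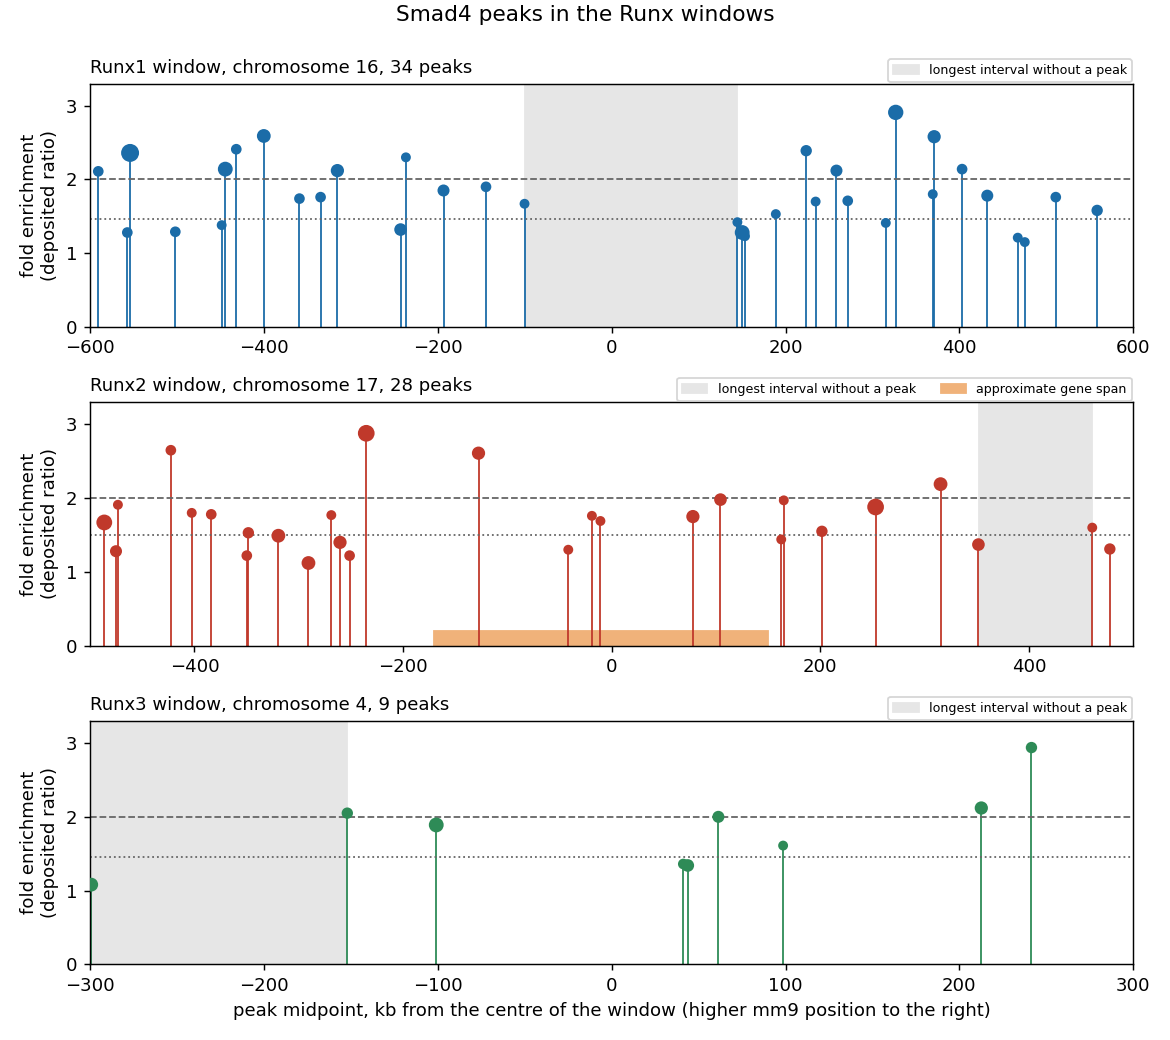
Smad4 peaks in the windows of Runx1 (top), Runx2 (middle) and Runx3 (bottom). The horizontal axis is the distance of the peak midpoint from the window centre in kb and the vertical axis the deposited fold enrichment, point area grows with tags, the dashed line is 2-fold, the dotted line the median fold of the rest of the chromosome, grey the longest interval without a peak and orange the approximate Runx2 span. No peak reaches 3-fold, 6 peaks lie over the Runx2 span, and the centre of the Runx1 window is empty over 244 kb.

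Runx1, the family member best known from blood stem cells, had 2-fold peaks at a share above that of its chromosome. Of its 34 peaks, 12 reached 2-fold (35.3%, interval 19.7 to 53.5%), beside 11.3% of the 3341 peaks in the rest of chromosome 16 (10.3 to 12.5%). Their density was 10.0 per Mb against 4.03 per Mb, a ratio of 2.48 (1.27 to 4.39). Peaks under 2-fold numbered 22 and were sparser than elsewhere, at 18.3 against 31.5 per Mb, a ratio of 0.582 (0.364 to 0.883). None of the 78 other windows of 1.2 Mb laid along the chromosome had as high a share, and the nearest had 33.3%. The number of 2-fold peaks was equalled or passed in 1 of them. The adjoining window on the upper side was close, with 10 of 31 peaks at 2-fold (32.3%) and a median fold of 1.72, while that on the lower side had 5 of 34 (14.7%) and 1.65. Over the 10 nearest windows the median of the median folds was 1.66, against 1.46 over all 78. Higher folds were thus shared by the windows close to Runx1, up to the last one laid at the upper end of the chromosome. Counted from the Runx1 window, its neighbours among windows -2 to 4 had median folds of 1.65 to 1.78 and 2-fold shares of 12.9 to 32.3%. In windows -16 to -3 these were 1.325 to 1.49 and 0 to 17.1%. Within 20 Mb, 20 windows had a median of 1.465 and a median 2-fold share of 9.37%. Those 20 ran from -16 to 4 and the 10 nearest from -6 to 4, so both sets lay mostly below Runx1. Windows with few peaks had higher shares in general: those with at most 34 peaks had a median share of 17.7%, against 10.0% over all 78. In the middle 50% of the window the share was lower, at 23.1% of 13 peaks (5.04 to 53.8%). None of the 34 peaks reached 3-fold, which allows up to 8.82%, beside 0.449% in the rest of the chromosome.

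The leading Runx1 peak, at 93026467 to 93027095, held 24 tags (15.4 to 35.7) and was 2.91-fold, at a p score of 325.34 and an FDR of 0.18%. This was the highest p score of the 71 peaks, and it ranked 1137 in the whole list. At 92145448 to 92146403 lay the peak with the most tags of the 71, 30 (20.2 to 42.8), with a fold of 2.36 and a p score of 282.16. The peak at 92299535 to 92300019 had 21 tags, a fold of 2.59 and a p score of 269.30, and that at 93070700 to 93071321 had 20 tags and a fold of 2.58. The other 8 peaks of at least 2-fold had folds of 2.11 to 2.41 and 15 to 23 tags. The 2-fold peaks lay on both sides of the window, 7 of 16 peaks below its empty centre and 5 of 18 above it.

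That empty centre ran from 92600000 to 92844350, an interval of 244 kb with no peak. Of the 3374 intervals between neighbouring peaks on chromosome 16, 5 were as long or longer, this one included, and the median was 17.2 kb. The longest was 432 kb. The next longest interval in the Runx1 window was 72.1 kb. In the GRCm38.p6 gene table Runx1 is 225 kb long, but its mm9 position was not used here, so whether the interval holds the gene is not given. It was bordered by a peak at 92599478 with a fold of 1.67 and 15 tags, and on the upper side by a group of 3 peaks between 92844351 and 92853618 with folds of 1.23 to 1.42. With the interval left out of the window length, a choice made after seeing it, the density of the window came to 1.00 times that of the rest of the chromosome, from 0.798. Clic6, Rcan1 and Kcne1 are the nearest protein-coding genes on the lower side, and Setd4, Cbr1 and Cbr3 on the upper side.

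Runx3, which acts beside Runx2 in cartilage and is also known from sensory neurons and T cells, had the fewest peaks. The window of 0.6 Mb held 9 (Poisson interval 4.12 to 17.1), where the density of the rest of chromosome 4 would give 22.0. At 15.0 against 36.6 per Mb the ratio was 0.409 (0.187 to 0.778), the only one of the 3 loci whose interval lay below 1. That interval reached past 1 in a window widened by 300 kb on each side, where the ratio was 0.728 (0.497 to 1.03), among peaks of at most 1% FDR, where it was 0.533 (0.244 to 1.01), and in the middle 50% of the window, where it was 0.455 (0.148 to 1.06). Of 252 other windows of this length, 16 had 9 peaks or fewer (6.35%), and the median was 21. Of those 16, 15 lay within 20 Mb of Runx3, where 66 windows had a median of 14 peaks, so low numbers were common to this stretch of the chromosome. The first of the 9 peaks lay at the very edge of the window, at 134400287, with a fold of 1.08. The intervals without a peak were long, at 147 kb from 134400954, 141 kb from 134599523 and 113 kb from 134798889, against a median of 15.4 kb on the chromosome. The interval of 141 kb contains the centre of the window.

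Among the 9 Runx3 peaks, 4 reached 2-fold (44.4%, interval 13.7 to 78.8%), beside 14.0% of the 5568 peaks in the rest of chromosome 4. With so few peaks the lower bound of this share lies under the background, and 26 of the 252 other windows had as high a share. Of these, 24 lay within 20 Mb of Runx3, where the median share was 32.3% against 12.5% over all 252 windows, so this too was common to the stretch. In the middle 50% of the window it was 20% of 5 peaks. The leading peak, at 134941200 to 134941758, had the highest fold of the 71 peaks, 2.94, with 17 tags (9.90 to 27.2) and a p score of 252.23. It ranked 864 in fold in the whole list. Next by p score, at 224.58, came 134547651 to 134548191, where 17 tags were 2.05-fold. The remaining 2-fold peaks, at 134912268 (20 tags, 2.12-fold) and 134761099 (18 tags, 2.0-fold), lay above the centre of the window. The most tags, 23 (14.6 to 34.5), were in the peak at 134598653 to 134599522, with a fold of 1.89. None reached 3-fold, beside 1.22% in the rest, and 9 peaks allow a share of up to 33.3%. The neighbours in the gene table are Syf2, Rsrp1 and Tmem50a on the lower side and Clic4, Srrm1 and Ncmap on the upper side. A Clic gene, of a family named for intracellular chloride channels, is thus next to every Runx gene in that table, which is a property of the genome and not of the peaks.

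Set side by side, each window held fewer peaks per Mb than the rest of its chromosome, but only the Runx3 interval lay below 1. Density was 28.3 per Mb at Runx1 against 35.5 in the rest of its chromosome, a ratio of 0.798 (0.552 to 1.12), and 28.0 against 34.7 at Runx2, a ratio of 0.806 (0.535 to 1.17). Both intervals include 1. The 10 nearest windows had medians of 39 peaks around Runx1, 25 around Runx2 and 13 around Runx3. With 28 peaks, the Runx2 window was thus above the median of its neighbours. Of the other windows of equal length, 20 of 78 on chromosome 16 had 34 peaks or fewer and 29 of 90 on chromosome 17 had 28 or fewer. Grouping of peaks was compared as well: 38.2% of Runx1, 39.3% of Runx2 and 22.2% of Runx3 peaks had a neighbour less than 10 kb away, against 55.9%, 54.6% and 58.4% in the rest of their chromosomes. Such shares depend on the number of peaks per Mb, so they are not independent of the densities above. These differences have no test.

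**Figure D2:**
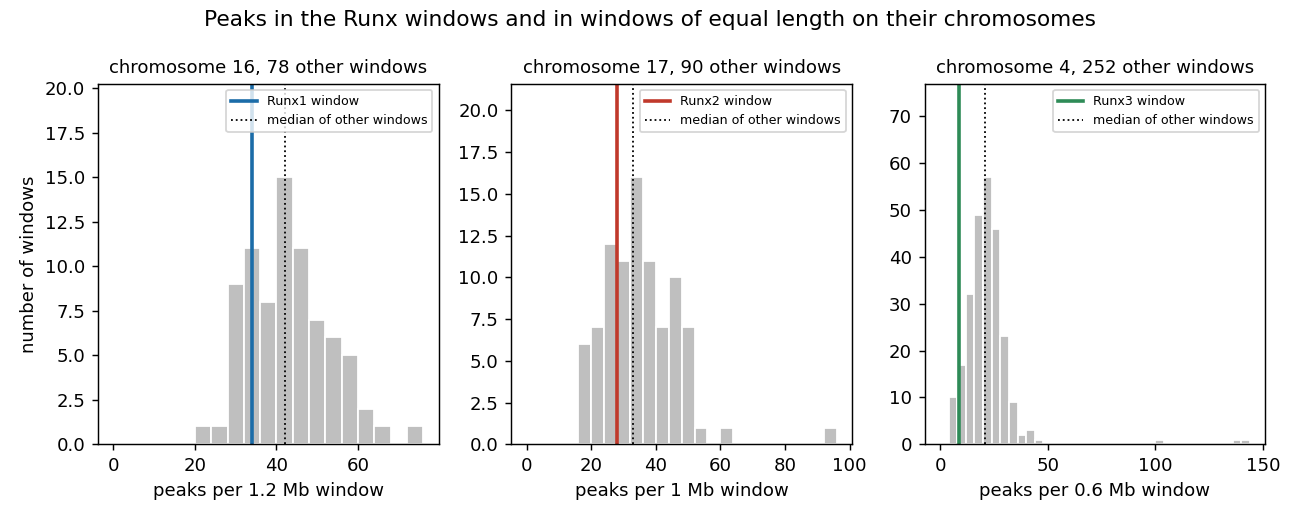
Number of peaks (horizontal axis) in windows of equal length laid along chromosomes 16, 17 and 4, with the number of windows on the vertical axis. The coloured line is the Runx window and the dotted line the median of the others. All 3 Runx windows lie below the median, at 34 against 42 peaks for Runx1, 28 against 33 for Runx2 and 9 against 21 for Runx3.

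**Figure D3:**
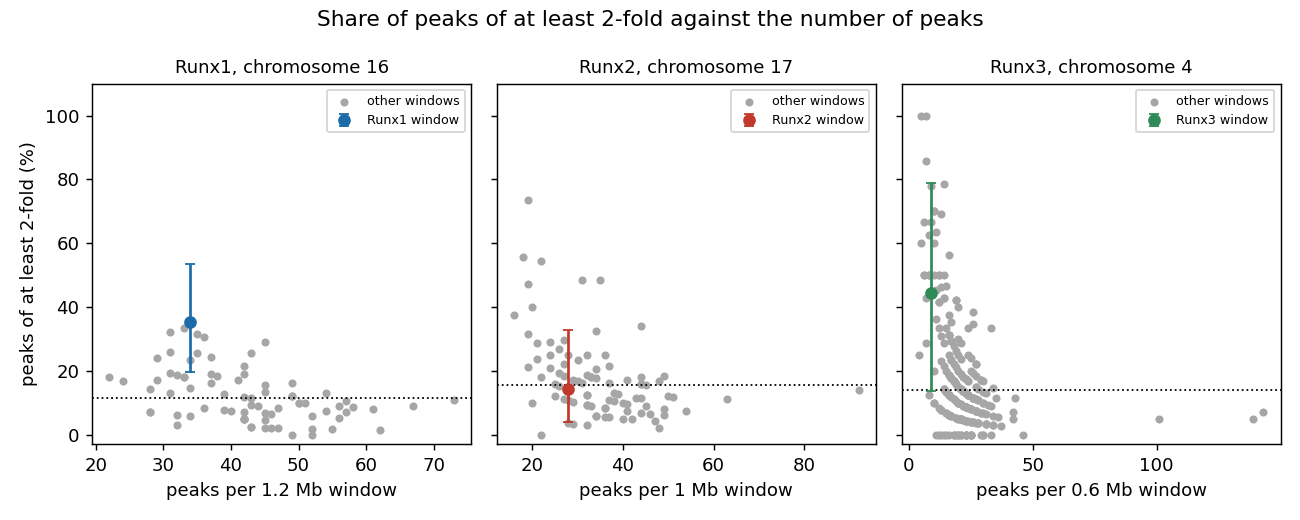
Share of peaks of at least 2-fold in % (vertical axis) against peaks per window (horizontal axis). Grey points are windows of equal length on the same chromosome, the coloured point is the Runx window with its exact binomial 95% interval, and the dotted line is the rest of the chromosome. The Runx1 window lies above every other window, Runx2 near its line, and Runx3 among other windows with few peaks.

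The median fold was higher than in the rest of the chromosome at each locus, while the tags hardly differed. It was 1.76 at Runx1 (interval of the median 1.53 to 2.12) against 1.46, 1.68 at Runx2 (1.44 to 1.80) against 1.5, and 1.89 at Runx3 (1.34 to 2.12) against 1.46. Only the Runx1 interval lay above the median of its chromosome, and this changed with the window. In the middle 50% of the Runx1 window the difference was 0.24 (-0.14 to 0.66), and in the widened Runx2 window it was 0.25 (0.05 to 0.38). A median fold as high as that of the Runx1 window was seen in 1 of the 78 other windows, as high as that of Runx2 in 14 of 90 and as high as that of Runx3 in 29 of 252. Of these, 1, 12 and 27 lay within 20 Mb of the locus, among 20, 40 and 66 windows there. Within 20 Mb of Runx3 the median of the median folds was 1.78, against 1.485 over all 252. Over the 10 windows nearest to Runx2 it was 1.61, against 1.51 over all 90. Higher folds were thus not particular to the Runx windows. The median number of tags was 16 at Runx1 against 16, 17 at Runx2 against 16 and 18 at Runx3 against 17. Peaks with exactly 15 tags made up 11 of 34 at Runx1 (background 33.7%), 9 of 28 at Runx2 (background 33.1%) and 1 of 9 at Runx3 (background 32.2%). Lengths were 302 to 956 bp, with medians of 570.5, 569 and 564 bp against 583, 585 and 588 bp.

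None of the 71 peaks had a fold below 1, beside 5.06% on the rest of chromosome 16, 3.60% on 17 and 5.66% on 4. A count of 0 allows up to 8.82%, 10.7% and 33.3% at Runx1, Runx2 and Runx3. With so few peaks a difference was thus not detectable at any locus taken alone. This limit was not worked out for the 71 peaks as 1 set. At least 1.5-fold were 24 of 34 at Runx1 (background 45.7%), 18 of 28 at Runx2 (background 50.7%) and 6 of 9 at Runx3 (background 47.0%). An FDR of at most 1% was given to 32 of 34 (background 75.7%), 27 of 28 (background 77.3%) and 9 of 9 (background 76.7%). The highest FDR were 2.74% and 1.5% at Runx1 and 1.92% at Runx2. None of the 71 peaks held more than 30 tags, beside 5.24% on the rest of chromosome 16, 5.43% on 17 and 8.76% on 4. These shares are under what a count of 0 allows at each locus taken alone, and the 71 peaks were not judged as 1 set.

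**Figure D4:**
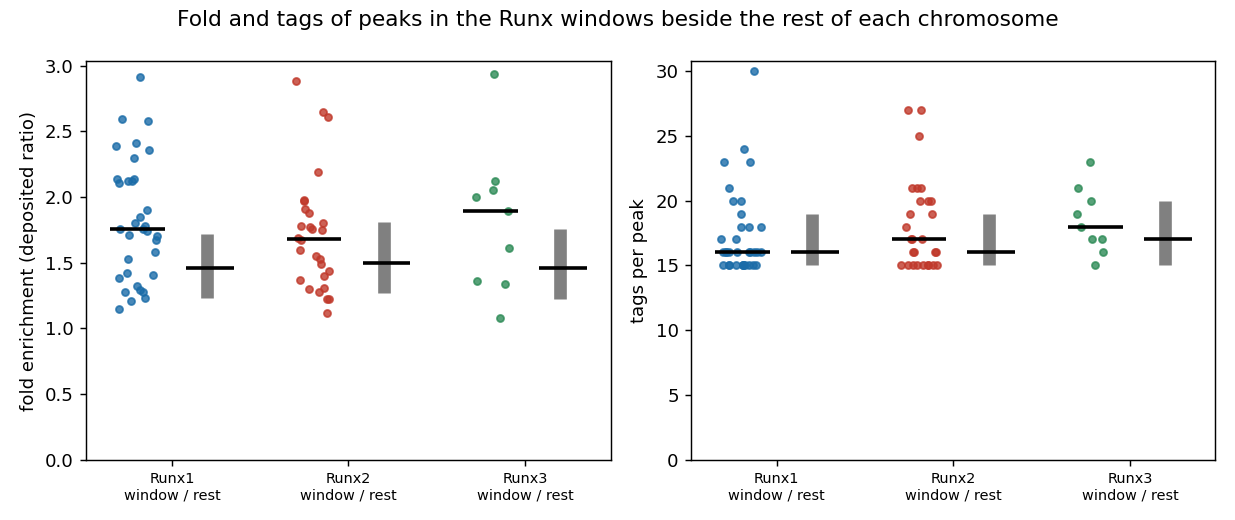
Deposited fold enrichment (left) and tags per peak (right) for each peak in the Runx windows (coloured points, black line at the median), beside the median and quartiles of the rest of the same chromosome (black line, grey bar). The medians of fold are 1.76, 1.68 and 1.89 in the windows against 1.46, 1.5 and 1.46, while those of tags are 16, 17 and 18 against 16, 16 and 17.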

How the data were processed

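Smad4 ChIP and input DNA were sequenced from forelimb, 1 library each. BWA (an aligner), SICER and MACS (peak callers) and the build mm9 are named in the submitters' processing notes, which give no versions, roles or settings. The data were 1 deposited peak list, laid out like MACS output per the file headers. Its columns hold the tag count per peak, a p score (10 times the negative log10 of the p-value), a fold enrichment, named as a ratio whose background is not stated, and an FDR in percent, all deposited by the authors and used as they stand. The fold served to describe peaks and set their order, inside the list only.

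Density is peaks per Mb, and the rest of a chromosome is the span from its first to its last peak without the window. The interval of a density ratio comes from the exact binomial interval of the window's share of the chromosome's peaks, and that of a median from order statistics. Peaks often lie close together, so these intervals may be too narrow. Windows of equal length were laid in both directions from each locus. Where a count is 0, the share it allows is 3 counts of the total.

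The rule named, per locus, the 3 peaks with the highest p score, the 3 with the highest fold, the 1 with the most tags, any of at least 3-fold, and 2-fold peaks in the Runx2 span. Other peaks named, as borders of intervals or by the Runx2 span, were chosen after their values were seen. The members and the comparisons were chosen with earlier results of these data known. The search of promoters and the nearest windows were chosen later, after the values were seen. Gene order and promoter sequences are from RefSeq (GRCm38.p6), where all 3 genes matched, and no mm9 annotation or sequence and no protein sequences were used here. The density ratio and the share, with their intervals, were tested on simulated peaks placed uniformly at random, without the close grouping of the real list. Intervals of medians, empty intervals and window comparisons were not simulated. Calculations used scipy 1.17.1, pandas 2.3.3 and numpy 2.4.6 under Python 3.11.15, and plots matplotlib 3.10.9.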

Additional observations from a re-analysis of the deposited data

How the results depend on the processing

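Of 105 values under alternative settings, 90 did not cross to the other side of no difference and stayed within the interval of the value reported or, for numbers of peaks, within 1.5 times of it. The settings were FDR at most 1%, overlap in place of the midpoint, other window widths, merging of peaks less than 1 kb apart, dense windows left out, all autosomes as the comparison and other fold limits. Some values could not move, so the 90 overstates how stable the results were. Chromosomes 16 and 17 had 0 dense windows, and a change of comparison leaves a window's own share as it was. Overlap in place of the midpoint left every value unchanged. The numbers of peaks followed the window: the middle 50% of each window held 13 at Runx1, 10 at Runx2 and 5 at Runx3, and windows widened on both sides held 66, 60 and 32. The density ratio passed from below 1 to above it with peaks of at least 2-fold only, at 2.48 for Runx1 and 1.30 for Runx3, with FDR at most 1% for Runx2, at 1.01, and without the longest empty interval for Runx1, at 1.00. The last of these was chosen after seeing the data. With a limit of 1.5-fold the share was 70.6% at Runx1 and 64.3% at Runx2, and with 3-fold it was 0% at Runx1, 0% at Runx2 and 0% at Runx3, as the limit itself sets. The share of 2-fold peaks depended on the window width: in the middle 50% it was 23.1% at Runx1, 20% at Runx2 and 20% at Runx3, and in the widened windows 28.8%, 26.7% and 31.3%. For Runx2 this is 16 of 60 peaks in place of 4 of 28. The cause was not tested. No paired analysis was possible because there is only 1 library of each kind. Sequencing depth is not known here, and a peak of 15 tags has a counting interval of 8.40 to 24.7 tags.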

Other observations

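The highest folds lay in the flanks of the windows and not inside them. In flanks of 600 kb on either side of the Runx1 window, 500 kb at Runx2 and 300 kb at Runx3, 5 peaks reached 3-fold. They were 1 of 32 flank peaks at Runx1, 1 of 32 at Runx2 and 3 of 23 at Runx3. In the list outside the 3 loci the share was 0.836%. In the upper flank of Runx1, 489 kb beyond the window, a peak at 93789060 to 93789965 held 77 tags (exact Poisson 95% interval 60.8 to 96.2) with a fold of 6.43, the 7th highest in the list. In the upper flank of Runx2, 424 kb beyond the window, a peak at 45723567 to 45724361 held 20 tags (12.2 to 30.9) with a fold of 3.23. Around Runx3 there were 3: 134320426 to 134320864, which lay 79.1 kb below the window, with a fold of 3.80 and 22 tags, 134132330 to 134133140 with a fold of 3.75 and 28 tags, and 135174782 to 135175762 with a fold of 3.48 and 36 tags. In the flanks of Runx2, 12 of 32 peaks (37.5%, exact binomial 95% interval 21.1 to 56.3%) reached 2-fold, against 4 of 28 in the window. At Runx1 this was 7 of 32 (21.9%, 9.28 to 40.0%), against 12 of 34 in the window. At Runx3 it was 6 of 23 (26.1%, 10.2 to 48.4%), against 4 of 9. The flanks thus had the higher share only at Runx2. The flanks were examined after the windows, these differences were not tested, and no gene was assigned to these peaks.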
